A study of Homo sapiens with 11 samples.

Results

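Transcript uc002jwh.4 is 1 row, with a listed length of 576, of a table of 182398 transcript rows counted in HEK293T cells with and without the enzyme that methylates the adenosine next to the messenger RNA cap. It was chosen by its RNA counts, which were strongly reduced in both knockouts of that enzyme, and it is described here with the rows that stand up to 15 lines before and after it in the table, 31 rows in all. Of these, 23 held a count in some library, 15 had at least 10 counts in at least 2 RNA libraries, and 7 failed that limit in both RNA and footprints. Rows with identical counts in every library were merged, which left 13 features of 57719 that could be tested in RNA and 12 that could be tested in footprints, each number including uc002jwh.4 itself. The other 8 rows carried no listed length and no counts.

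HEK293T, an established line of human embryonic kidney origin, also expresses SV40 large T antigen. The labels name the disrupted gene CSAM, whose current symbol is PCIF1, and they distinguish an unmodified (WT) background from 2 knockouts, CSAM-KO#1 and CSAM-KO#2, called knockout 1 and knockout 2 below. RNA was sequenced in 2 libraries of each background, while ribosome footprints were sequenced in 1 wild-type library and 2 libraries of each knockout. No treatment or time is given, and the labels do not say whether a knockout is a single clone or replicates are separate cultures. P-values therefore reflect only how far these libraries spread, which may be technical.

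PCIF1 binds RNA polymerase II and adds a methyl group to the N6 position of a 2′-O-methylated adenosine when that is the first nucleotide after the cap, a mark known as m6Am. Ribosome profiling sequences the short stretches of messenger RNA that ribosomes protect from nuclease, so that footprint counts follow both the amount of a messenger RNA and how densely ribosomes occupy it, whereas the RNA libraries measure the amount alone. Transcript catalogues list many overlapping isoforms of a gene as separate entries, and a read that falls in a shared exon can then count for several of them.

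None (0) of the 31 identifiers was found in the reference tables used here, so no gene name, genome position or sequence is given for them. The targeted gene and markers of the cell line were not analysed here, because the rows carry no gene names. Merged library totals were 40346318 to 63551193 counts in RNA and 8387752 to 17437453 in footprints. Levels are given as CPM, counts scaled to a common library size within each assay after TMM, a correction for differences in RNA composition.

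In RNA, uc002jwh.4 had 1547 and 1083 counts in the wild-type libraries, 82 and 100 in those of knockout 1, and 62 and 87 in those of knockout 2. As levels these were 23.7 and 20.7 CPM in wild type against 2.04 and 2.00 (knockout 1) and 1.39 and 1.99 (knockout 2). Both wild-type libraries thus stood far above all 4 knockout libraries, and the highest library of knockout 2 reached almost the lower library of knockout 1. Wild type averaged 22.2 CPM ± 2.06 (SD, n = 2). Knockout 1 averaged 2.02 CPM ± 0.03 and knockout 2 averaged 1.69 CPM ± 0.42, each with n = 2. The RNA was 11-fold lower in knockout 1 and 13.1-fold lower in knockout 2, with fitted log2 changes of -3.46 ± 0.15 (SE) and -3.72 ± 0.15, and -3.59 ± 0.12 for the mean of the knockouts. These values chose the transcript and are given without a test. In such bulk samples, fewer cells that express a transcript and less of it per cell cannot be told apart.

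The rank of uc002jwh.4 depended on the level required in wild type. By the lesser of its changes in the knockouts it stood 46th of all 57719 features and 13th of the 44645 with at least 1 CPM in wild type, and it was the most reduced of the 17655 with at least 10 CPM. Leaving out the neighbouring rows described here, the next in that last set were uc001gaq.4, with a lesser change of -3.40 on the log2 scale, and uc004eep.4, with -1.64. The neighbour uc060kxj.1, at a mean of 11.1 CPM in wild-type RNA, stood between them with a lesser change of -3.27, in knockout 1. The wild-type libraries of uc001gaq.4 held 149 and 1123 counts, so that its level differed several-fold between replicates. For uc004eep.4 they held 11227 and 7904 counts, against 1878 to 2435 in the knockouts. The limit of 10 CPM was set after these values had been seen.

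**Figure D1:**
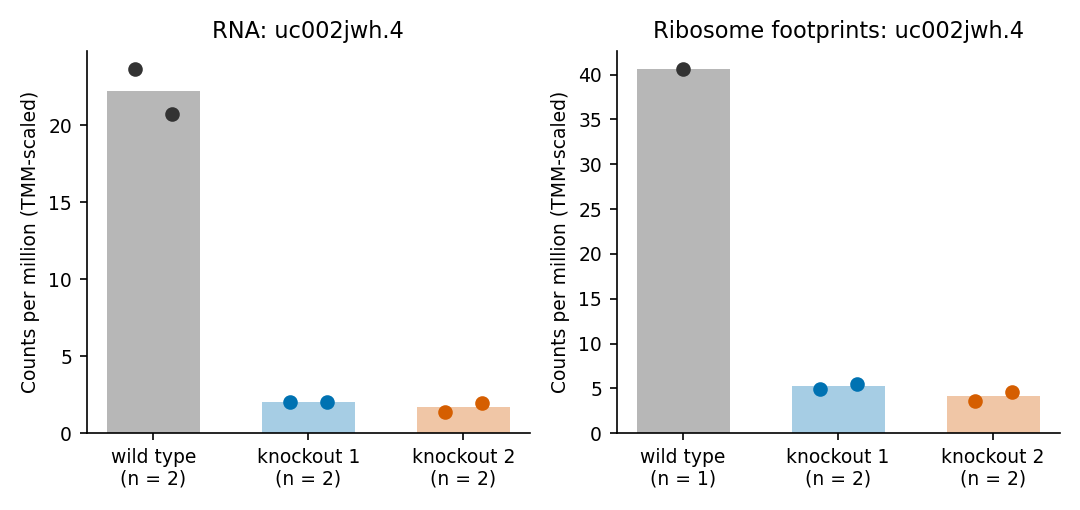
Level of uc002jwh.4 in CPM on a linear axis from 0, in RNA (left) and ribosome footprints (right). Points are libraries and bars are group means: wild-type RNA lies at 20.7 and 23.7 CPM against 1.39 to 2.04 in the 4 knockout libraries, and the single wild-type footprint library at 40.6 CPM against 3.63 to 5.46.

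Footprints of uc002jwh.4 were lower in both knockouts as well. The wild-type library held 336 footprint counts, the libraries of knockout 1 held 53 and 46, and those of knockout 2 held 63 and 43. Their levels were 40.6 CPM in wild type against 4.96 and 5.46 (knockout 1) and 3.63 and 4.64 (knockout 2). The wild-type library again stood above all 4 knockout libraries, and both libraries of knockout 1 stood above those of knockout 2. The footprint libraries were not used to choose the transcript. In them its level was 7.82-fold lower in knockout 1 (log2 change -2.97 ± 0.19 (SE), edgeR adjusted p = 3.46e-23, where 3.64% of all features were called lower) and 10.1-fold lower in knockout 2 (-3.34 ± 0.19, edgeR adjusted p = 4.06e-27, where 8.67% were). For the mean of the knockouts the change was -3.15 ± 0.16 (edgeR adjusted p = 4.14e-30), and 3 of 44410 features had a lower one. Features that reached 10 counts only in the single wild-type library were not tested, so this rank leaves out stronger losses of that kind. With 1 wild-type footprint library, these tests assume that wild type varies like the knockout pairs, and RNA and footprints may come from the same cultures.

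The ratio of footprint to RNA level of uc002jwh.4 was 1.83 in wild type, 2.58 in knockout 1 and 2.44 in knockout 2. The median ratio over the features tested in both assays was 0.884, 0.91 and 0.891 in the same order, and uc002jwh.4 stood at percentile 82.0 in wild type. The change in this ratio, called translational efficiency, was 0.44 ± 0.21 (SE) on the log2 scale for the mean of the knockouts, at percentile 81.7 of 44089 features. It contains the RNA change on which the transcript was chosen and was therefore not tested.

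The knockouts were then compared with each other at uc002jwh.4. The RNA level of knockout 1 exceeded that of knockout 2 by 0.25 ± 0.19 (SE) on the log2 scale, which is given without a test because the RNA of both knockouts was used to choose the transcript. In footprints the difference was 0.37 ± 0.22, with a 95% interval of -0.069 to 0.81, and did not pass (edgeR adjusted p = 0.346), where 8.32% of all features did. The RNA difference was 0.02 without replicate 1 of knockout 2 and 0.53 without its replicate 2, so its size rests on single libraries. The footprint difference was 0.16 without footprint replicate 1 of knockout 2, and did not pass without any single knockout library.

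Among the neighbours, 8 of 12 features were called lower in RNA in the mean of the knockouts (edgeR, adjusted p under 0.05), where 4.91% of all features were. They were uc060kxd.1, 1 line before uc002jwh.4, and all 7 features tested among the 15 lines after it, the last being uc060kxo.1 at 11 lines. Their log2 changes lay between -3.45 for uc060kxd.1 and -3.12 for uc060kxo.1, beside a median of -0.002 over all features. In each of these 8 both wild-type libraries stood above all 4 knockout libraries, as in 12.8% of all features. Rows that overlap uc002jwh.4 would repeat its reads, so the neighbours that fell are no independent evidence of its change.

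The levels of these neighbours followed the same pattern at a lower height. Uc060kxj.1 (listed length 249, 6 lines after) had 769 and 541 RNA counts in wild type against 50 and 53 (knockout 1) and 33 and 53 (knockout 2), a log2 change of -3.39 ± 0.15 (SE). Uc060kxd.1 (listed length 196) had 617 and 423, then 37 and 40, then 24 and 42 counts. Neither feature had a knockout library near its wild-type libraries. Uc060kxm.1 (listed length 201) and uc060kxn.1 (listed length 200), on adjoining lines, held the same RNA counts in all 6 libraries, 583 and 383 in wild type against 26 to 45 in the knockouts. In footprints they differed by a single count in the wild-type library, 100 against 99.

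The shorter rows fell to a like degree. Uc060kxi.1 (listed length 122) had 444 and 286 RNA counts in wild type and 21 to 34 in the knockouts. Uc060kxg.1 (listed length 104) had 366 and 245, against 19 to 32. Uc060kxe.1 (listed length 39, the line after uc002jwh.4) had 210 and 138, against 10 to 18. In each of them the lowest wild-type count was several times the highest knockout count. Uc060kxo.1 (listed length 134) had 240 and 153 counts in wild type against 17 and 20 (knockout 1) and 6 and 25 (knockout 2). Its knockout 2 libraries were the least alike of these features.

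**Figure D2:**
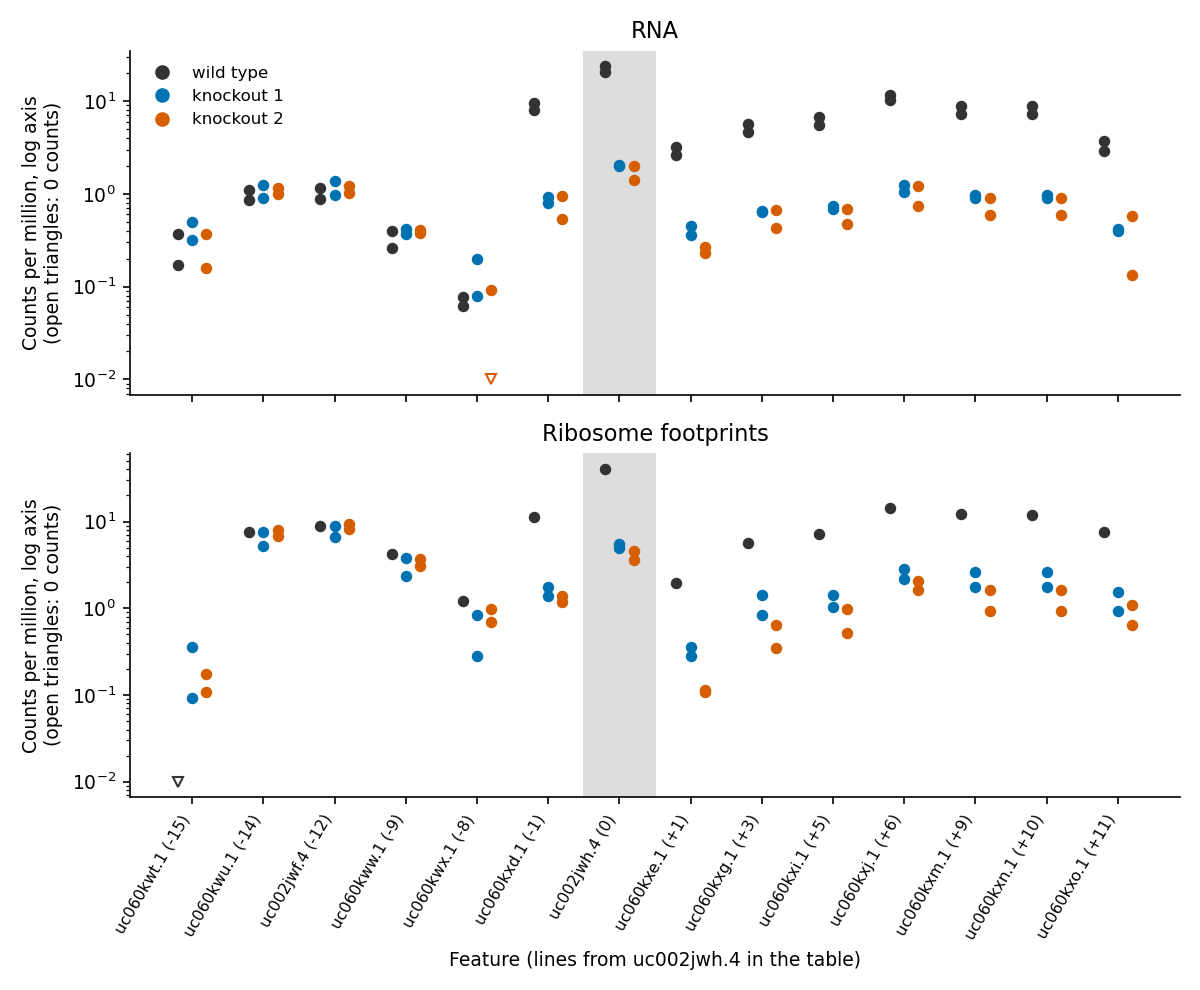
Level of each feature up to 15 lines before and after uc002jwh.4 (grey band) that could be tested in RNA or footprints, in CPM on a log axis, with 1 point per library. From uc060kxd.1 to uc060kxo.1 every wild-type point lies above every knockout point of the same feature, while from uc060kwt.1 to uc060kww.1 the RNA levels of the groups overlap.

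Footprints divided the neighbours at the same place. Of 11 neighbours tested, 7 were called lower in the mean of the knockouts (edgeR, adjusted p under 0.05), where 6.67% of all features were. They were uc060kxd.1 and the 6 features tested after uc002jwh.4, with log2 changes from -2.98 for uc060kxg.1 to -2.78 for uc060kxj.1. In each of them the wild-type library stood above all 4 knockout libraries, as in 27.7% of all features. Uc060kxj.1 had 119 footprint counts in wild type against 23 and 24 (knockout 1) and 28 and 19 (knockout 2) (log2 change -2.78 ± 0.24 (SE), edgeR adjusted p = 4.18e-16). Uc060kxd.1 had 93, then 15 and 15, then 24 and 11 (-2.96 ± 0.27, edgeR adjusted p = 5.61e-15). Both kept the order of the RNA libraries, wild type above the knockouts. Uc060kxe.1 was too low in footprints to be tested, with 16 counts in wild type and 1 to 3 in the knockout libraries.

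No neighbour (0) was called higher in RNA or in footprints, either by edgeR or by DESeq2 without its filter on low means, and 0 had an unadjusted edgeR p under 0.05 in that direction. Over all features, edgeR called 3.89% higher in RNA and 4.6% in footprints. Between the knockouts edgeR and DESeq2 also called 0 neighbours, where edgeR called 6.54% of all features in RNA and 8.32% in footprints. An unadjusted edgeR p under 0.05 was found in 0 of 12 neighbours in RNA and 3 of 11 in footprints, against 19.7% and 21.5% of all features. Those 3 were uc060kxg.1, uc060kxm.1 and uc060kxn.1, all with more footprints in knockout 1, and the last pair, which differ by 1 count in 1 library, are nearly the same measurement. Their log2 differences were 1.26 (95% interval 0.22 to 2.30), 0.87 (0.15 to 1.58) and 0.87 (0.15 to 1.58). In RNA these comparisons of the knockouts are descriptions only, since neighbours that overlap uc002jwh.4 would repeat the reads used to choose it. Uc060kxm.1 and uc060kxn.1 also held the same RNA counts, so the 12 neighbours are not separate outcomes.

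The features farther before uc002jwh.4 did not fall with it in RNA. Uc060kwu.1 (listed length 134), whose counts 2 other rows of the same listed length repeat, had 56 and 57 RNA counts in wild type against 36 and 63 (knockout 1) and 51 and 44 (knockout 2). Uc002jwf.4 (listed length 211) had 58 and 60, then 39 and 69, then 54 and 45. The groups of both features overlapped. Their log2 changes were 0.16, with a 95% interval of -0.31 to 0.63, and 0.19, with an interval of -0.28 to 0.65 (edgeR adjusted p = 0.749 and 0.692).

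Uc060kww.1 (listed length 100, 9 lines before) and uc060kwt.1 (listed length 43, 15 lines before) rested on fewer counts. In RNA uc060kww.1 had 17 and 21 counts in wild type and 15 to 21 in the knockouts, and uc060kwt.1 had 24 and 9 in wild type and 7 to 20 in the knockouts. Their log2 changes were 0.28 (interval -0.48 to 1.04) and 0.23 (interval -0.65 to 1.10), with edgeR adjusted p-values of 0.72 and 0.814. Among these 4 features, intervals that reach down no further than -0.65 leave out a loss of the size seen in uc002jwh.4.

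In footprints the same stretch showed no called change. Uc060kwu.1 had 62 counts in wild type against 56 and 64 (knockout 1) and 119 and 75 (knockout 2), or levels of 5.24 to 8.09 CPM in the knockouts. Its log2 change was -0.14, with a 95% interval of -0.61 to 0.33 (edgeR adjusted p = 0.782), and that of uc002jwf.4 was -0.13, with an interval of -0.56 to 0.30 (edgeR adjusted p = 0.775). The wild-type level of both lay within the range of the knockout libraries. In uc060kww.1 (4.23 CPM, with a lowest knockout library of 2.34) and uc060kwx.1 (1.21 CPM, from 10 counts, against 0.28 to 0.97) the wild-type library was the highest, as in 27.7% of all features. Their log2 changes of -0.43 and -0.89 did not pass (edgeR adjusted p = 0.419 and 0.411), and the interval of uc060kwx.1 reached from -2.15 to 0.36.

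The earlier features that could be tested in both assays held more footprints for their RNA than uc002jwh.4. The ratio of footprint to RNA level in wild type was 7.70 for uc060kwu.1, 8.79 for uc002jwf.4 and 12.8 for uc060kww.1, at percentiles 98.6, 98.9 and 99.5 of the features tested in both assays. Uc060kwt.1, too low in footprints to be tested, had 0 footprint counts in wild type and 1 to 3 in the knockouts, and ratios of 0.551 and 0.537 in knockout 1 and knockout 2. Among the neighbours that fell in both assays the wild-type ratio ran from 1.10 for uc060kxg.1 to 2.31 for uc060kxo.1. Per 100 units of listed length, wild-type RNA was 0.42 and 0.545 CPM for uc002jwf.4, against 4.11 and 3.60 for uc002jwh.4. Wild-type footprints per 100 units were 4.24 CPM for uc002jwf.4 and 7.06 for uc002jwh.4. Uc002jwf.4 and uc002jwh.4 were thus much further apart in RNA level per length than in footprint level per length.

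**Figure D3:**
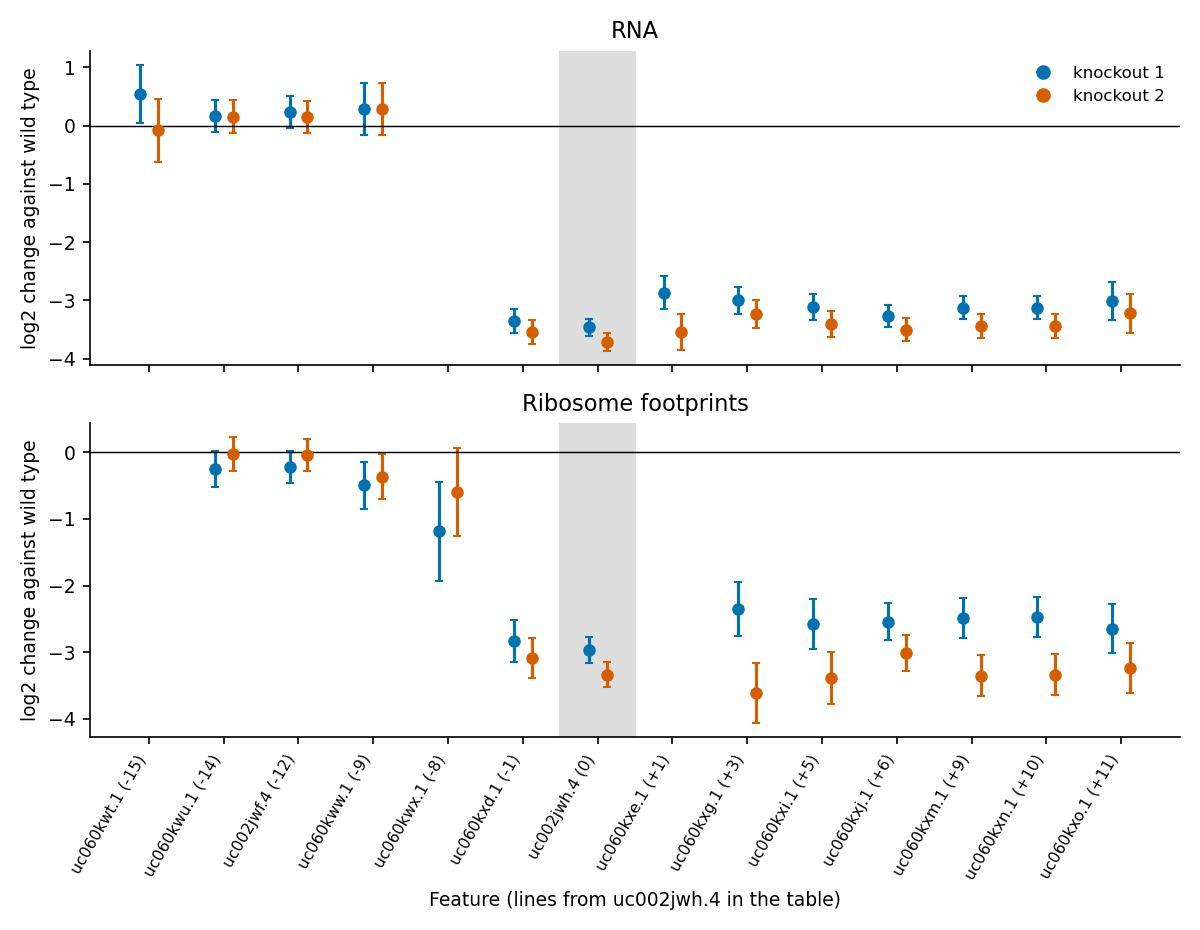
Log2 change against wild type for each feature in knockout 1 and knockout 2, in RNA (top) and footprints (bottom), with standard errors as bars; features too low in an assay are left out of that panel. Every feature from uc060kxd.1 on lies below -2, and those farther before uc002jwh.4 lie within about 1 unit of 0, except uc060kwx.1 in knockout 1 footprints at -1.19.

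Between these stretches the table held little signal. The rows 2 to 5 lines before uc002jwh.4 had no listed length and no counts. Uc002jwg.3 and uc060kwy.1, both with a listed length of 612, held 1 RNA count each over all 11 libraries. After uc002jwh.4, 5 rows with a listed length of 9 to 53 held at most 5 counts in any library. In the wild-type footprint library uc060kxf.1 had 4 counts and uc060kxq.1 had 5, and the knockout libraries held at most 2. These rows fell below the count limit of both assays and were not tested with it.

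The edges of the window did not coincide with the edges of the stretch that fell. Uc060kxt.1 (listed length 79), 16 lines after and so just outside, had 346 and 229 RNA counts in wild type against 23 and 25 (knockout 1) and 21 and 18 (knockout 2). Its footprint counts were 39 in wild type against 9 and 10 (knockout 1) and 5 and 5 (knockout 2). Its log2 changes were -3.32 in RNA and -2.92 in footprints, within the range of the neighbours that fell. Uc060kxv.1 (listed length 392), 18 lines after, had 516 and 370 RNA counts in wild type and 355 to 456 in the knockouts, a change of 0.23 (edgeR adjusted p = 0.191). On the other side, uc060kws.1 at 16 lines before changed by 0.08 (edgeR adjusted p = 0.925). From 31 to 100 lines away, the lowest RNA change was -0.50 among 22 features before uc002jwh.4 and -0.15 among 20 after it. Called higher in RNA were 0 of those 22 and 3 of those 20, where edgeR called 3.89% of all features higher.

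**Figure D4:**
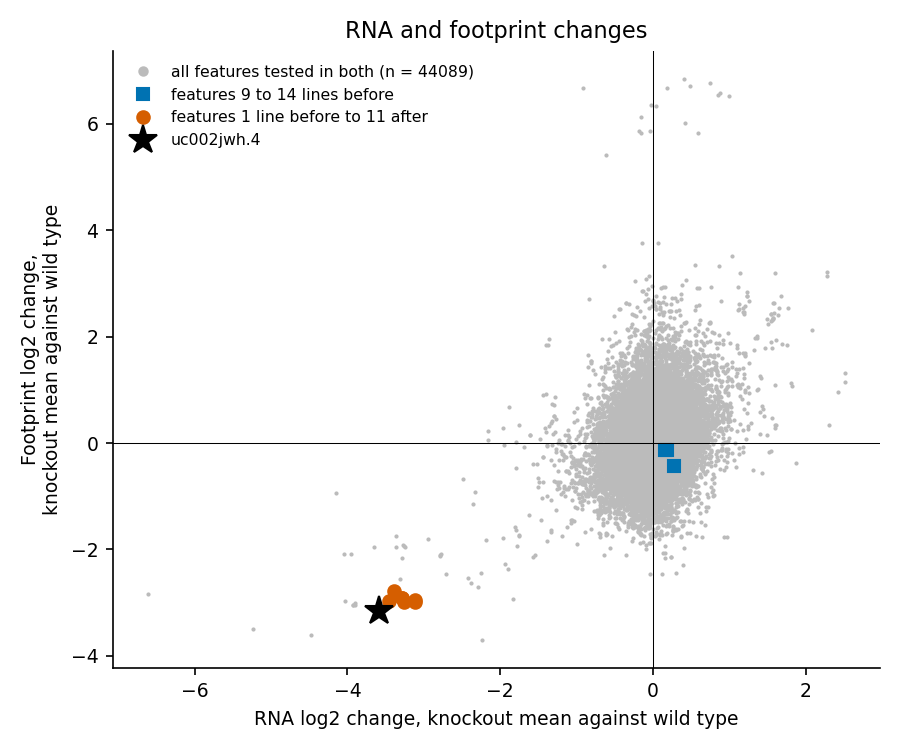
RNA change (horizontal) and footprint change (vertical) of the mean of the knockouts against wild type, on the log2 scale, for all features tested in both assays (grey), uc002jwh.4 (star), the features 1 line before to 11 lines after it (circles) and those 9 to 14 lines before it (squares). The star, at -3.59 and -3.15, and the circles lie together at the lower left, while the squares lie in the main cloud near 0.

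The counts of the falling neighbours were also set against those of uc002jwh.4 in the same library. In RNA uc060kxj.1 held 49.7% and 49.95% of the count of uc002jwh.4 in wild type against 61.0% and 53.0% (knockout 1) and 53.2% and 60.9% (knockout 2). For uc060kxm.1 the shares were 37.7% and 35.4%, then 47.6% and 45.0%, then 41.9% and 46.0%. In both features all 4 knockout libraries lay above the wild-type libraries. Summed over libraries, the share of uc060kxm.1 was 36.7% in wild type (exact 95% binomial interval 34.9% to 38.6%), 46.2% in knockout 1 (38.8% to 53.7%) and 44.3% in knockout 2 (36.2% to 52.7%).

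The higher share was seen in 5 of the 8 features in RNA, namely uc060kxg.1, uc060kxi.1, uc060kxj.1, uc060kxm.1 and uc060kxn.1. Of these, uc060kxm.1 and uc060kxn.1 held identical RNA counts and are the same measurement. All the shares also divide by the same count of uc002jwh.4, so they are not separate results. How often such a rise is found elsewhere in the table was not computed. In uc060kxd.1, uc060kxe.1 and uc060kxo.1 the knockout libraries overlapped with wild type. In footprints 1 of 8, uc060kxj.1, had a higher share in all 4 knockout libraries (43.4% to 52.2%) than in the wild-type library (35.4%). The intervals cover counting error only, and they treat a neighbour's counts as part of those of uc002jwh.4, which could not be checked. These shares come from the same contrast that chose the transcript and were not tested. Because uc002jwh.4 was chosen for low RNA counts in the knockouts, the choice itself may affect RNA shares of its count there, which was not tested.

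**Figure D5:**
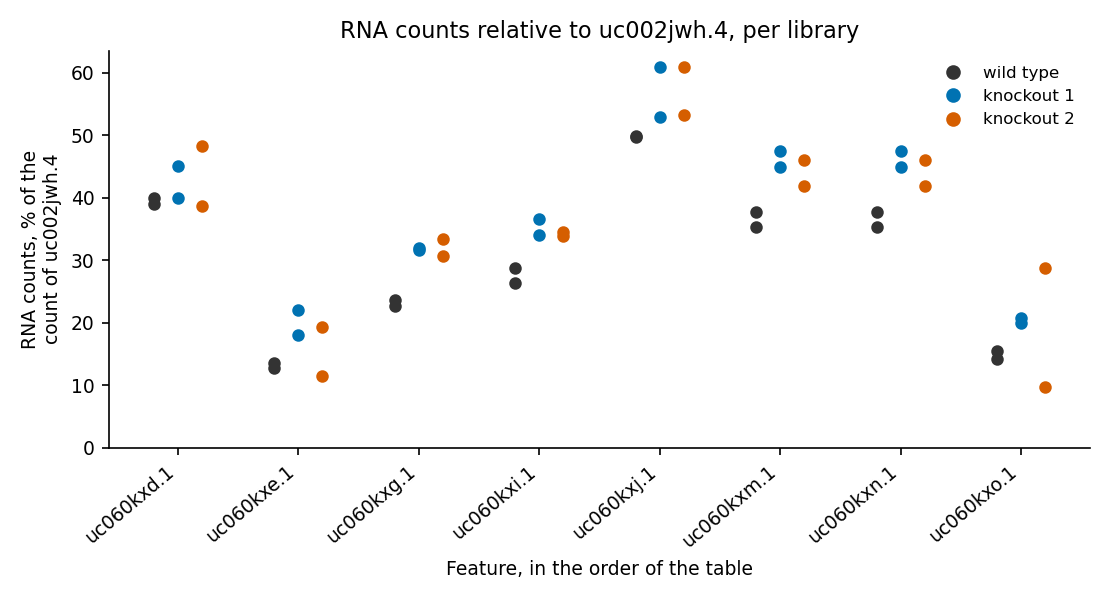
RNA counts of each neighbour that fell, as a percentage of the count of uc002jwh.4 in the same library, with 1 point per library and the axis starting at 0. Wild type lies lowest in uc060kxg.1, uc060kxi.1, uc060kxj.1, uc060kxm.1 and uc060kxn.1, and within the range of the knockouts in the others.

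Coverage per length was less even in RNA than in footprints. In wild-type RNA uc060kxe.1 had the highest level per 100 units of listed length among the features that fell, 8.24 and 6.78 CPM, and uc060kxo.1 the lowest, 2.74 and 2.19. In wild-type footprints the same features had 4.96 and 5.69 CPM per 100 units, and the features of this stretch that could be tested lay between uc060kxg.1 (5.47) and uc002jwh.4 (7.06). Uc002jwh.4, the longest of them, thus had the highest footprint level per length, while in RNA only uc060kxo.1 was lower per length.

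Features elsewhere in the table were then ranked by their likeness to uc002jwh.4, as the Euclidean distance between log2(CPM + 0.5) profiles centred within each assay, over 11 libraries and 38603 features with at least 1 CPM in wild type in both assays. The median distance was 4.68. Nearest outside the window, with at most 1 feature per 20 lines, were uc004dqf.4 (distance 0.839), uc003yph.3 (0.985), uc010nmz.3 (1.21), uc060kxt.1 (1.36) and uc057mgj.1 (1.66). Within the window the nearest was uc060kxj.1 (0.659), and uc002jwf.4, which did not fall, lay at 4.76. All 5 therefore stood far nearer than the median feature, by a measure that includes the RNA changes used to choose uc002jwh.4. The added 0.5 CPM shrinks differences between low levels, so a near-total loss can stand close to a partial one. Fitted RNA log2 changes were -9.82 for uc004dqf.4 and -9.34 for uc057mgj.1, of uncertain size with so few knockout counts, against -3.59 for uc002jwh.4.

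These features differed in how much signal the knockouts kept. Uc010nmz.3 (listed length 1139) had 250 and 155 RNA counts in wild type against 11 and 18 (knockout 1) and 9 and 5 (knockout 2). Its footprint counts were 137 in wild type against 23 and 16 (knockout 1) and 34 and 21 (knockout 2). Both assays therefore kept some signal in the knockouts, as at uc002jwh.4. Uc003yph.3 (listed length 543) had 515 and 247 RNA counts in wild type and 9 to 25 in the knockouts, with 29 footprint counts in wild type and 0 to 4 in the knockouts.

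The remaining pair was almost or wholly without counts in the knockouts. Uc004dqf.4 (listed length 72) had 380 and 248 RNA counts in wild type and 1 count over all 4 knockout libraries. Uc057mgj.1 (listed length 776) had 106 and 87, against 0 in each knockout library, which allows up to 3 counts per library. At uc002jwh.4 the knockout libraries kept 62 to 100 RNA counts and 43 to 63 footprint counts, so some signal remained in every library.

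Of the features outside the window with a lower RNA change than uc002jwh.4 and more than 3 counts in each knockout, the lowest were uc001gaq.4, uc003yph.3 and uc065bgd.1, taking 1 per 20 lines. Uc065bgd.1 had 887 and 872 RNA counts in wild type against 4 and 0 (knockout 1) and 716 and 853 (knockout 2), so its low mean came from knockout 1 alone. For uc001gaq.4, with 149 and 1123 counts in wild type, the change of -4.15 did not pass by edgeR (adjusted p = 0.231) and passed by DESeq2 (adjusted p = 0.0248). Uc002jwh.4 was low in both knockouts, unlike uc065bgd.1, and its wild-type replicates lay closer together than those of uc001gaq.4.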

How the data were processed

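Ribosome footprints and mRNA were sequenced from HEK293T cells, in 11 libraries that GEO's titles put in 6 groups. Footprints were made with RNase I and RNA libraries with a TruSeq kit, per the labels' protocols. Each deposited file gives a raw count, always a whole number, for every transcript row. Hg38, CASAVA 1.8, Bowtie2 2.1.0 and TopHat2 2.0.9 are named with no role, per the submitters' processing notes. How the authors counted, and how they treated reads shared by several transcripts or strands, is not given in the sources used here, so overlapping isoforms and antisense transcripts cannot be told apart. The listed length has no stated unit.

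Rows with identical counts in all libraries were merged (82937 rows with a count became 66016 features). Features reaching 10 counts in 2 or more libraries of an assay were fitted with edgeR 4.0.16 in R 4.3.3 (TMM, robust quasi-likelihood, two-sided tests, p adjusted by Benjamini-Hochberg across every feature fitted, threshold 0.05), with all libraries of an assay sharing 1 spread. Translational efficiency came from 1 model over all 11 libraries. The SE is the log2 change over the square root of F, and intervals use the normal quantile. The code was tested on simulated data.

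The transcript, its neighbours and the comparisons were chosen with earlier results of these data known. Named were uc002jwh.4, its tested neighbours, the 5 most like and the 3 features elsewhere with the lowest RNA change among those with at least 1 CPM in wild type and more than 3 counts in each knockout, 1 per 20 lines; others named beside an edge, a rank or a low count were chosen after their values were seen. Alternatives were DESeq2 1.42.0, other scaling, filters, windows, unmerged rows, a replicate block and leaving out each library except the single wild-type footprint library.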

Additional observations from a re-analysis of the deposited data

How the results depend on the processing

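No alternative left out the single wild-type footprint library, on which every footprint change against wild type rests. The change of uc002jwh.4 kept its direction in all alternatives run. Leaving out 1 library at a time, it ranged from -3.73 to -3.47 in RNA, from -3.22 to -3.05 in footprints, where it passed in each edgeR fit, and from 0.32 to 0.58 in efficiency; the difference of the knockouts ranged from 0.02 to 0.53 in RNA and from 0.16 to 0.51 in footprints, where it never passed. In these same fits 8 neighbours were lower in RNA and 6 to 7 in footprints, and 0 were higher. With no count filter, 8 of 15 neighbours were lower in each assay, where 4.77% of all features were lower in RNA and 4.43% in footprints. With 5 lines either side, 4 of 4 neighbours were lower in RNA and 3 of 3 in footprints. With 30 lines either side, 9 of 30 were lower in RNA, and in footprints 8 of 23 were lower and 3 higher. With a mean of at least 50 counts, 0 of 2 were lower in footprints, since the neighbours that fell were no longer tested. DESeq2 gave no adjusted p for any neighbour in footprints. Without its filter on low means, added after seeing the data, it called 7 of 11 lower, and 1.98% of all features.

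The RNA changes of 3 low features before uc002jwh.4, never called, changed sign when single libraries were left out: uc060kwt.1 (-0.18 without wild-type replicate 2, -0.13 without replicate 2 of knockout 2, up to 0.90), uc060kwu.1 (-0.015 to 0.33) and uc060kww.1 (-0.019 to 0.61), the last 2 negative without wild-type replicate 1. The replicate numbers are not said to pair libraries: deviations of same-numbered libraries correlated with r of -0.058 to 0.0761 in RNA and -0.00242 in footprints. With the replicate number as a block, the RNA change was -3.59 and the differences of the knockouts 0.25 and 0.35, and 8 neighbours were called lower in RNA. Over all features the block gave 6599 RNA calls in place of 5078. DESeq2 gave 2991, and 1528 in footprints (1110 lower, 418 higher) in place of 5007 (2963 lower, 2044 higher). Between the knockouts it gave 756 footprint calls in place of 3696. Leaving out replicate 1 of wild type, or replicates 1 or 2 of knockout 1, gave 2532, 2032 and 2782 RNA calls. Between the knockouts, leaving out single libraries moved the RNA calls from 3772 to between 1352 (without replicate 2 of knockout 1) and 5366 (without wild-type replicate 2), and the footprint calls to between 1565 and 4295 (without replicates 1 and 2 of knockout 1). The cause was not tested.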

Other observations

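Of 7 features tested in footprints 16 to 30 lines after uc002jwh.4, 3 were called higher in the mean of the knockouts. These 3 were not called in RNA. They were chosen after their values were seen, and may overlap each other. Uc060kxv.1 (listed length 392, 18 lines after uc002jwh.4) had 85 footprint counts in wild type against 171 and 132 (knockout 1) and 250 and 139 (knockout 2), or 10.3 CPM against mean levels of 15.8 and 14.7. Its log2 change was 0.57 (edgeR adjusted p = 0.0344). Uc060kxw.1 (listed length 255) rose by 0.91 (edgeR adjusted p = 0.00558) and uc060kxy.1 (listed length 109) by 1.01 (edgeR adjusted p = 0.020). Their RNA changes were 0.23, 0.21 and 0.46, in the same direction, none of which passed (edgeR adjusted p = 0.191, 0.409 and 0.206). The difference between their footprint and RNA changes is not given, so a change in footprints alone is not shown. Over all features 4.6% were called higher in footprints. From 31 to 100 lines away, 1 of 18 features before uc002jwh.4 and 2 of 18 after it were called higher in footprints. In knockout 1 alone the footprint changes of uc060kxv.1, uc060kxw.1 and uc060kxy.1 all passed. In knockout 2 alone those of uc060kxv.1 and uc060kxy.1 did not (edgeR adjusted p = 0.0686 and 0.0832). Each change rests on the single wild-type footprint library.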
